A study of Mus musculus with 2 samples.

Results

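Fgf2, Edn2, Fgfr1 and Ednrb, a pair of secreted signals and a receptor for each, were followed in single cells of the injured mouse retina. They are 4 of the 31053 features counted, found by their symbols, and they had been picked because earlier results from these same libraries showed a difference in Fgf2 and Edn2 between the libraries in rods. Their levels in rods are therefore a description of how they were chosen. The study compared 2 libraries, PBS and MSC-sEV, both made 2 weeks after optic nerve injury; the first group had received PBS, a saline buffer, and the second the preparation that the labels call MSC-sEV. Each library was 1 pool of retinas from 6 C57BL/6 mice aged 6 to 8 weeks, and all mice of both groups carried the nerve injury, so no uninjured retina is among the samples. Retinas were digested with papain and cells were taken on magnetic beads against CD45, the leukocyte surface protein encoded by Ptprc. With 1 pool per group, treatment, pool and library cannot be told apart, and no test between mice was possible.

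FGF2, basic fibroblast growth factor, is a heparin-binding protein that photoreceptors and Müller glia make under stress and that is known for slowing photoreceptor death. It signals through tyrosine kinase receptors such as FGFR1, with heparan sulfate proteoglycans as co-receptors, to the ERK pathway, whose feedback inhibitors include the Sprouty proteins and DUSP6. Endothelin-2, the product of Edn2, is a small vasoactive peptide that damaged photoreceptors make. In the retina its receptor EDNRB has been described on Müller glia, the radial glia that span the tissue, so that the pair is known as a signal from photoreceptors to glia.

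In the GRCm38 annotation Fgf2 lies at chr3:37348346-37410108 on the plus strand, Edn2 at chr4:120161206-120167360 on the plus strand, Fgfr1 at chr8:25513654-25575718 on the plus strand and Ednrb at chr14:103814625-103844402 on the minus strand. All 4 are protein-coding genes. The 250 bases before the RefSeq start site (GRCm38.p6) matched 3 of the 4 genes and are shown 5′ to 3′ because both ligands are higher in the rods of MSC-sEV while Ednrb is nearly absent from rods. Capitals mark matches, on either strand, to 6 short motifs searched: TAATCC (the type bound by the photoreceptor factor CRX), TGANTCA (AP-1), TTCNNNGAA (STAT), TGACG (the core of the cyclic AMP response element), ACGTG (hypoxia response element) and GGGCGG (GC box). The windows lie at chr3:37348403-37348652 (plus strand) for Fgf2, chr4:120160956-120161205 (plus strand) for Edn2 and chr14:103843702-103843951 (minus strand) for Ednrb.
Fgf2: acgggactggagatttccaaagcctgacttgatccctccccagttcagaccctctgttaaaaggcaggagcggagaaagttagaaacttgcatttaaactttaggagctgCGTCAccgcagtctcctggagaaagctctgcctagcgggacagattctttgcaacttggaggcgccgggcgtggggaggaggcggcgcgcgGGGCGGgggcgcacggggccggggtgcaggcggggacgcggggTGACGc
Edn2: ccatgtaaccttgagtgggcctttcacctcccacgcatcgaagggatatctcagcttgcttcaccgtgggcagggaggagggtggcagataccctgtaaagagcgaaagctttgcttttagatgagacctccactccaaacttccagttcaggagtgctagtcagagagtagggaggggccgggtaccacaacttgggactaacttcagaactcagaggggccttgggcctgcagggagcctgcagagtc
Ednrb: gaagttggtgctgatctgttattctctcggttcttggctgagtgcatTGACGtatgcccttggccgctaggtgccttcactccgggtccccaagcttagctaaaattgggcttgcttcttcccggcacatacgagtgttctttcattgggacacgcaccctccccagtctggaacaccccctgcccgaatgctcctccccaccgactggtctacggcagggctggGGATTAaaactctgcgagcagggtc

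The Fgf2 window held 2 matches to TGACG and 1 to GGGCGG, and its GC content was 62.4%, against a median of 52.4% over all windows. The Edn2 window, with 55.6% GC, held none of the 6 motifs. The Ednrb window held 1 match to TAATCC, with its bases 20 to 25 positions before the start, and 1 to TGACG. Over all 32851 windows of this length, TAATCC was found in 6.252%, TGANTCA in 6.749%, TTCNNNGAA in 7.02%, TGACG in 17.77%, ACGTG in 16.57% and GGGCGG in 32.74%. The match to TAATCC stood before the RefSeq start of the receptor gene and not before that of either ligand gene. The receptor gene had 4 and 1 UMIs in rods. By the annotated gene positions above, the Fgf2 and Ednrb windows lie inside those genes, and only the Edn2 window lies before its gene. A match is only a run of letters.

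PBS gave 8439740 UMIs (tags that each mark 1 captured RNA molecule) in 1676 barcodes, and MSC-sEV 16987131 in 2593. A minimum of 500 UMIs and 300 genes with no more than 15% mitochondrial counts was met by 1347 and 2323 barcodes, of which 1344 and 2319 remained after doublet calls. No barcode was shared. Median depth was 2596 and 2922 UMIs per cell, and the median mitochondrial share was 5.07% in PBS and 2.59% in MSC-sEV. Although the labels name immune cells, 704 of the PBS cells and 1067 of the MSC-sEV cells formed clusters with rod markers, where Ptprc was seen in 0.994% and 2.53% of cells, against 51.5% and 63.5% in microglia-like cells. Monocyte or macrophage-like, T cell-like and migratory dendritic cell-like clusters came from the MSC-sEV library alone. Levels below are CPM, the UMIs of a gene per 1000000 UMIs of the same cells, and all intervals are exact 95% intervals that cover counting error only.

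In counts of RNA molecules, not scaled to gene length, Fgf2 had 277 UMIs in 169 kept barcodes of the PBS library and 961 in 464 of the MSC-sEV library. Edn2 had 67 UMIs in 56 barcodes of PBS and 425 in 271 of MSC-sEV. Fgfr1 had 112 UMIs in 72 barcodes and 233 in 112. Ednrb had 25 UMIs in 14 barcodes and 43 in 21, few enough to limit every comparison of it. Over all kept barcodes the ligands were higher in MSC-sEV, Fgf2 at 58.0 against 34.5 CPM and Edn2 at 25.7 against 8.34 CPM. The receptors' intervals overlapped between the libraries, with Fgfr1 at 13.9 CPM (11.5 to 16.8) in PBS and 14.1 CPM (12.3 to 15.99) in MSC-sEV, and Ednrb at 3.11 CPM (2.01 to 4.59) and 2.60 CPM (1.88 to 3.50).

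**Figure D1:**
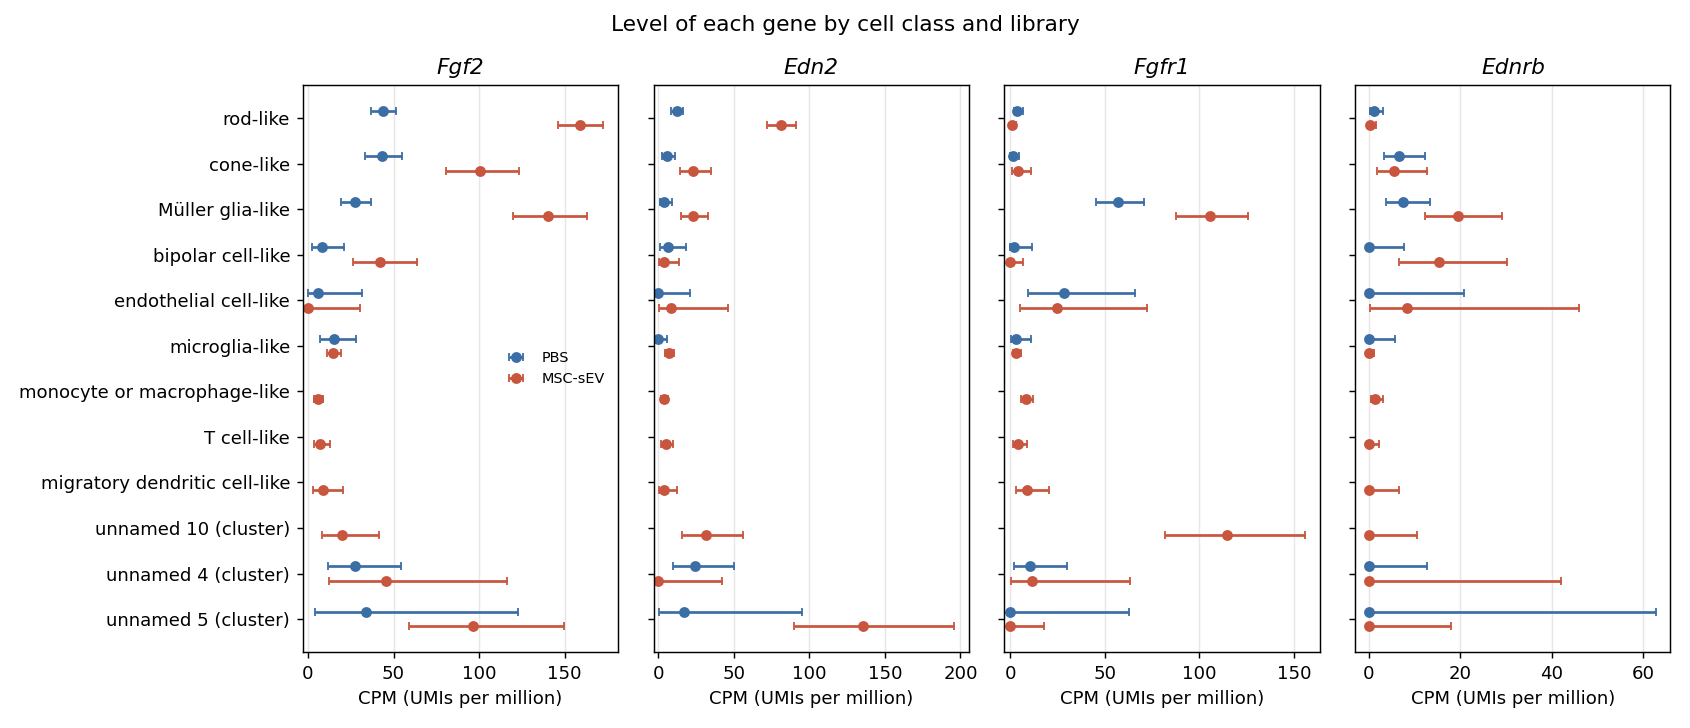
Level of each gene in each cell class, in CPM (horizontal axis, with its own linear scale per gene), for the PBS library (blue) and the MSC-sEV library (red). Points are summed UMIs over the class, bars are exact 95% Poisson intervals, and a class with 1 point was found in 1 library. Fgf2 and Edn2 lie farther right in red in rod-like and cone-like cells, while Fgfr1 is high in Müller glia-like cells and in unnamed cluster 10.

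Rod-like cells held most of the ligand RNA. In the PBS library 147 Fgf2 UMIs were spread over 99 of 704 rod-like cells, 43.6 CPM (36.9 to 51.3). In the MSC-sEV library 557 UMIs were spread over 309 of 1067 cells, 159 CPM (146 to 173). The level was thus 3.64-fold higher in MSC-sEV (3.03 to 4.398), a log2 ratio of 1.86. Among the genes tested, those with at least 20 UMIs, 2 of the 4 genes (Fgf2 and Edn2) could be read in rod-like cells. Both, having been chosen for their difference there, were at least 2-fold higher. Of the 10312 genes tested 19.8% were at least 2-fold apart, 14.6% higher and 5.21% lower in MSC-sEV. The median gene was itself 0.26 higher on the log2 scale in rod-like cells of MSC-sEV, 0.23 higher in cone-like and 0.13 higher in Müller glia-like cells. Scaling by the median of gene ratios instead of by total UMIs gave Fgf2 a log2 ratio of 1.67.

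The Fgf2 RNA of rods was spread over many cells. The richest rod-like cell held 5 UMIs in PBS and in MSC-sEV 15, and 30 and 133 cells held 2 or more. Microglia-like cells had a UMI in 7.77% of cells in PBS at a median depth of 3254 UMIs and in 11.3% in MSC-sEV at 5527 UMIs, against 14.1% and 29.0% of rod-like cells at 2696 and 2609 UMIs. After every cell was thinned to 1000 UMIs, which left out 87 and 121 shallower rod-like cells, 4.21% of PBS rods (2.77 to 6.11) and 14.6% of MSC-sEV rods (12.4 to 17.0) still had one. Microglia-like cells gave 3.70% (0.770 to 10.4) and 2.22% (0.898 to 4.52) at that depth, so the share in PBS rods could not be told from that in PBS microglia-like cells, while the share in MSC-sEV rods lay above. No class known to lack Fgf2 was used to measure free RNA.

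The difference in Fgf2 was found in deeper rods and not in the shallowest. Among rod-like cells with at least 500 but under 1000 UMIs the level was 137 CPM (62.7 to 260.3) in PBS and 130.5 CPM (65.1 to 233) in MSC-sEV, so that the intervals overlapped. Among cells with at least 2000 but under 4000 UMIs it was 56.5 and 157 CPM, and among cells with 8000 or more it was 28.9 and 161 CPM. The level in PBS thus ran from 137 down to 28.9 CPM from the shallowest to the deepest rods, while in MSC-sEV it lay between 130.5 and 180.5 CPM in each depth range. When every cell counted equally, as the mean of each cell's own CPM, the log2 ratio was 1.28.

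**Figure D2:**
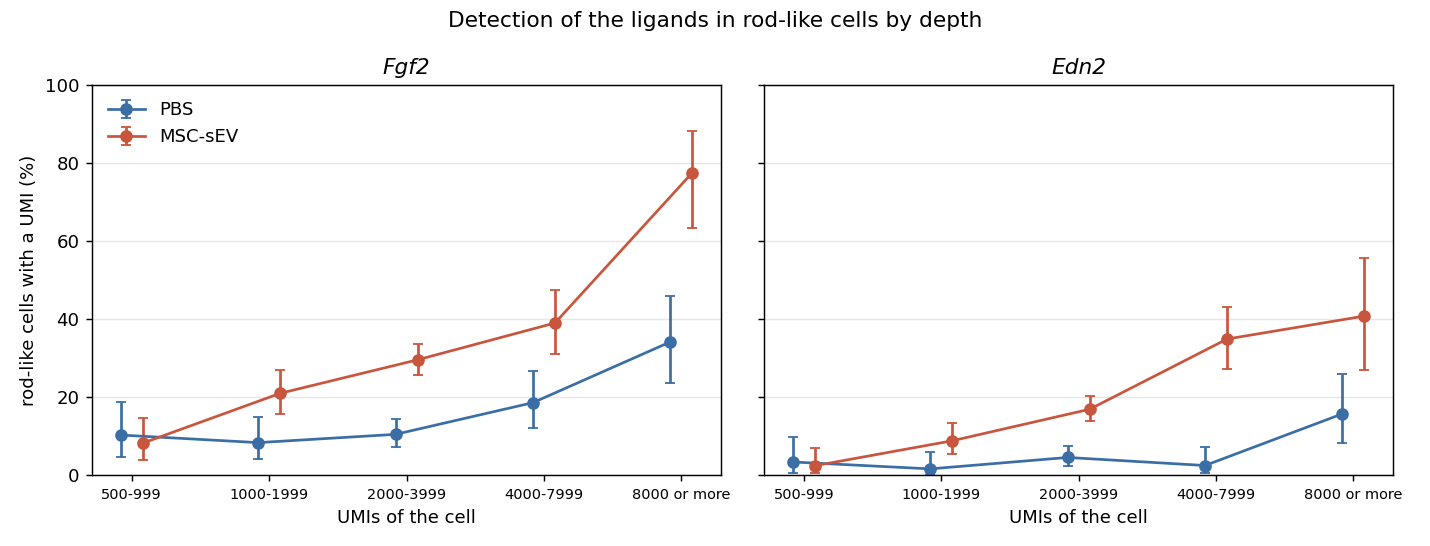
Share of rod-like cells with at least 1 UMI of Fgf2 (left) or Edn2 (right), in percent, by the cell's total UMIs, for PBS (blue) and MSC-sEV (red), with exact 95% Clopper-Pearson intervals as bars. For Fgf2 the intervals overlap below 1000 UMIs and stand apart above that depth, with 77.6% of the deepest MSC-sEV rods and 34.2% of the deepest PBS rods; for Edn2 they overlap below 2000 UMIs.

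Fgf2 was counted in every rod cluster. Rods formed 6 named clusters, and the 5 that both libraries share had Fgf2 at 125 to 182 CPM in MSC-sEV, while the PBS levels ran from 33.9 to 109 CPM. The ratio was largest in cluster 13, the deep rods, at 4.18-fold (2.64 to 6.86), and smallest in cluster 3 at 1.66-fold (0.925 to 3.27), where PBS had 12 UMIs in 27 cells. The sixth, cluster 16, held 47 PBS cells and 0 MSC-sEV cells, and its Fgf2 was at 20.7 CPM (12.2 to 32.7), overlapping cluster 13 of PBS at 33.9 CPM (21.7 to 50.4). In that cluster the 13 Müller glia markers made up 0.566% of UMIs and the 13 microglia markers 0.580%, while in the other PBS rod clusters they made up 0.0600% to 0.0988% and 0.0167% to 0.0472%. Without cluster 16, Fgf2 in rods was 51.7 CPM in PBS and 3.08-fold higher in MSC-sEV (2.54 to 3.76).

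Edn2 stood farther apart between the libraries than Fgf2. In the PBS library 41 UMIs fell in 34 of 704 rod-like cells, 12.2 CPM (8.74 to 16.5). In the MSC-sEV library 285 UMIs fell in 184 of 1067 cells, 81.3 CPM (72.2 to 91.3). This was a 6.68-fold difference (4.80 to 9.51), a log2 ratio of 2.74. By log2 ratio Edn2 ranked 32 of the 10312 genes and Fgf2 129. Both had been chosen for their difference in rods, so these ranks only describe that choice. Microglia-like cells showed an Edn2 UMI in 0 of 103 cells in PBS, with an exact interval up to 5.62 CPM, and in 5.95% of cells in MSC-sEV. At 1000 UMIs per cell, 1.62% of PBS rods (0.780 to 2.96) and 7.61% of MSC-sEV rods (6.00 to 9.49) had one, against 0.635% of MSC-sEV microglia-like cells. Other leukocytes of MSC-sEV overlapped its rods, with 3.36% (0.923 to 8.38) in unnamed cluster 10, described below, and 2.86% (0.593 to 8.12) in T cell-like cells. Monocyte or macrophage-like cells had 0 of 191.

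Edn2 ranged more widely than Fgf2 over the MSC-sEV rod clusters. It was at 34.2 CPM (22.1 to 50.5) in cluster 0, 46.3 CPM (25.9 to 76.4) in cluster 2 and 42.5 CPM (28.0 to 61.9) in cluster 13. In cluster 1 it was at 96.5 CPM (77.2 to 119) and in cluster 3 at 143 CPM (120 to 169.5). Clusters 1 and 3 are rods rich in the nuclear RNA Malat1 (65100 and 77243 CPM in MSC-sEV, against 4208 to 11373 CPM in clusters 0, 2 and 13) and poor in mitochondrial counts, with medians of 1.65% and 0.920%, against 3.88% to 5.59%. They held 285 and 270 of the 1067 MSC-sEV rods but 147 and 27 of the 704 PBS rods. A shallow cluster with rod markers that stayed unnamed, cluster 5, was alike, with Malat1 at 78030 CPM, a mitochondrial median of 1.81% and Edn2 at 135.5 CPM (90.0 to 196) in MSC-sEV.

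In the PBS library the same split was not resolved, since the 5 shared clusters held 1 to 8 Edn2 UMIs each. Within clusters the MSC-sEV level was higher in cluster 0 at 4.19-fold (1.83 to 10.8), in cluster 1 at 5.15-fold (2.50 to 12.3) and in cluster 13 at 7.53-fold (2.62 to 29.6). Cluster 2 gave 1.79-fold (0.688 to 5.20), an interval that includes no difference, and cluster 3 had 1 UMI in PBS and 132 in MSC-sEV, a ratio of 15.7 (2.77 to 626). With the 5 shared clusters weighted equally the log2 ratio was 2.43 for Edn2 and 1.30 for Fgf2.

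**Figure D3:**
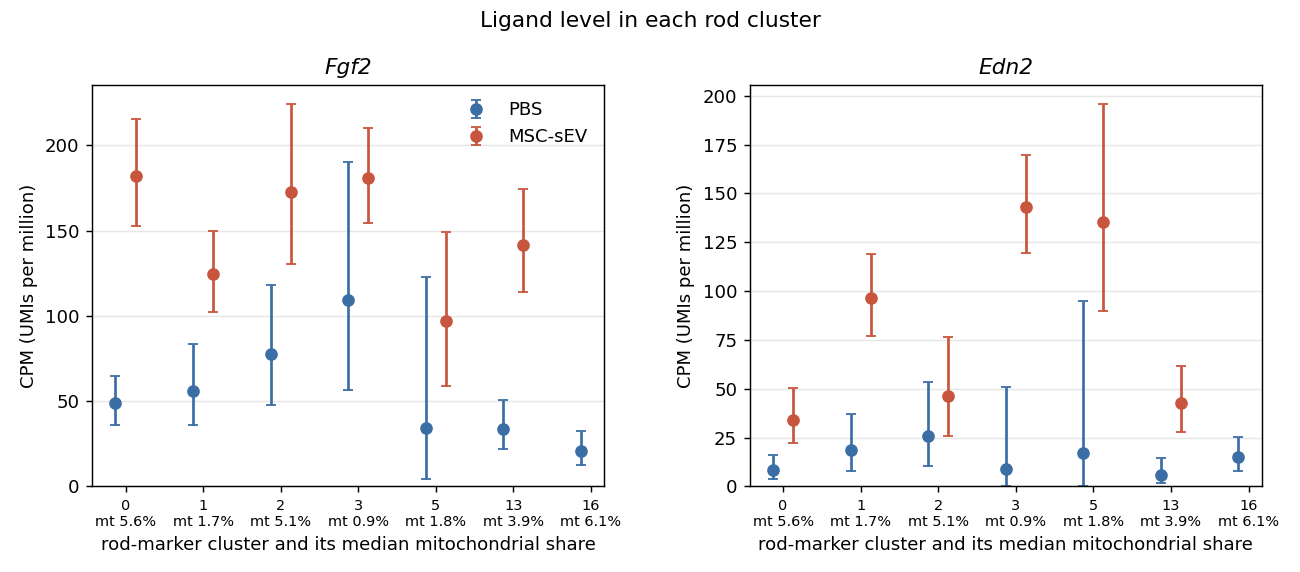
Fgf2 (left) and Edn2 (right) in CPM in each cluster led by rod markers, for PBS (blue) and MSC-sEV (red), with exact 95% Poisson intervals as bars and the median mitochondrial share (mt) of the cluster under its number. Fgf2 in MSC-sEV is at 125 to 182 CPM in the named clusters, while Edn2 is highest in clusters 1, 3 and 5, where mt is lowest; cluster 16 has no MSC-sEV cell.

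Both signals were often seen in the same rods. Fgf2 was detected in 18 of the 34 PBS rods with Edn2 (52.9%, 35.1 to 70.2) and in 12.1% of the 670 others (9.72 to 14.8). In MSC-sEV it was detected in 94 of 184 (51.1%, 43.6 to 58.5) and in 24.3% of the 883 others (21.6 to 27.3). Depth favours both detections, as the rods with Edn2 had medians of 3687 and 3209.5 UMIs against 2657 and 2517 for the others. Among MSC-sEV rods with at least 2000 but under 4000 UMIs, where medians were 2807 and 2797.5, Fgf2 was seen in 40 of 91 cells with Edn2 (44.0%, 33.6 to 54.8) and in 26.7% of the 446 others (22.6 to 31.0). The PBS rods of that depth gave 4 of 14 (28.6%, 8.39 to 58.1) and 9.66% of 290 (6.51 to 13.7), which overlapped. In MSC-sEV the intervals also stood apart from 4000 to under 8000 UMIs (56.9% and 29.5%). They overlapped at other depths, as from 1000 to under 2000 UMIs (42.1% and 19.0%) and at 8000 or more (85.0% and 72.4%). Of the 18 PBS rods with both, 10 had 8000 or more UMIs, where medians were 39957 with Edn2 and 10611.5 without. Cluster 16 held 10 of the 34 PBS rods with Edn2.

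In cone-like cells, both ligands were also higher in MSC-sEV. Fgf2 had 65 UMIs in 75 PBS cells and 92 in 52 MSC-sEV cells, 43.3 CPM (33.4 to 55.2) and 100.4 CPM (80.9 to 123), a 2.32-fold difference (1.67 to 3.23). Edn2 had 9 and 21 UMIs, 6.00 CPM (2.74 to 11.4) and 22.9 CPM (14.2 to 35.0), a 3.82-fold difference (1.68 to 9.48). Both were past 2-fold, as were 11.2% of the 8452 genes tested in cone-like cells in that direction. One MSC-sEV cell of 62611 UMIs held 28 of the 92 Fgf2 UMIs, and without the richest cell of each library the levels were 34.2 and 74.9 CPM. With a stricter cell filter the Fgf2 ratio was 1.70, below 2-fold, from 65 and 64 UMIs.

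Rod RNA was plentiful in these cone-like cells. All 13 rod markers were detected in both libraries and together made up 9.77% (PBS) and 5.84% (MSC-sEV) of all their UMIs, against 11.2% and 8.95% in rod-like cells. Their part in the ligand levels of cone-like cells was not tested.

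Müller glia-like cells had the Fgf2 ratio farthest from 1 among the retinal classes with at least 20 UMIs in each library. The PBS library held 40 UMIs in 26 of 112 cells, 27.2 CPM (19.4 to 37.1). The MSC-sEV library held 166 UMIs in 33 of 76 cells, 140 CPM (120 to 163), which was 5.16-fold higher (3.63 to 7.48). The 13 rod markers made up 4.70% (PBS) and 3.17% (MSC-sEV) of all UMIs of the class, a lower share in the library where Fgf2 was higher. In MSC-sEV, 162 of the 166 UMIs came from the 37 cells with 8000 or more UMIs. One cell of 72812 UMIs held 35 of them, and without the richest cell of each library the levels were 25.6 and 118 CPM.

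All 4 genes reached 20 UMIs in Müller glia-like cells, and 3 of them (Fgf2, Edn2 and Ednrb) were at least 2-fold higher in MSC-sEV, where 9.69% of the 10137 genes tested were at least 2-fold higher and 4.65% lower. For Edn2 the counts were 6 and 27 UMIs, 4.08 CPM (1.498 to 8.88) and 22.8 CPM (15.0 to 33.2), a ratio of 5.59 (2.26 to 16.6). How far rod RNA accounts for these Edn2 counts was not tested. In bipolar cell-like cells Fgf2 had 4 and 22 UMIs, 8.28 CPM (2.26 to 21.2) and 42.1 CPM (26.4 to 63.8), while the rod markers made up 1.69% and 0.756% of UMIs. Of those 22 UMIs 1 cell held 7.

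In microglia-like cells Fgf2 had 10 and 52 UMIs, 15.2 and 14.7 CPM, a ratio of 0.964 (0.485 to 2.13). The class joins 2 unlike clusters, the shallower cluster 6 with 63 and 167 cells and the deeper cluster 7 with 40 and 186. Fgf2 was at 45.8 CPM (18.4 to 94.4) and 29.2 CPM (17.0 to 46.8) in cluster 6, a ratio of 0.638 (0.252 to 1.82), and at 5.96 CPM (1.23 to 17.4) and 11.8 CPM (8.24 to 16.5) in cluster 7, a ratio of 1.99 (0.626 to 10.1). Neither interval excluded an equal level, and cluster 6 of PBS overlapped the 43.6 CPM of PBS rods. Fgf2 in the joined class was within 2-fold, where 10.5% of the 9986 genes tested were at least 2-fold higher and 6.78% lower. Edn2 had 0 and 25 UMIs, a ratio of 1.55 with the 0 set to a floor of 3 counts over the class. The exact interval of that ratio began at 1.17, which leaves its side of 2-fold unknown. In MSC-sEV Edn2 was at 17.2 CPM (8.25 to 31.6) in cluster 6, overlapping cone-like and Müller glia-like cells, and at 5.07 CPM (2.84 to 8.36) in cluster 7. For Fgf2, the leukocyte classes found only in MSC-sEV were at 5.88 CPM (monocyte or macrophage-like), 7.31 CPM (T cell-like) and 8.83 CPM (migratory dendritic cell-like). In order of Fgf2 level among the named classes of MSC-sEV, rod-like cells came first, but their interval overlapped that of Müller glia-like cells, and cone-like cells were next, with an interval that overlapped that of the Müller glia-like cells at its edge. Bipolar cell-like cells followed, apart from the cone-like cells, and the leukocyte classes lay below.

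Fgfr1, the FGF receptor, was concentrated in Müller glia-like cells, which held 76.4% of its UMIs in PBS and 53.6% in MSC-sEV. It was seen in 49 of 112 cells in PBS and 42 of 76 in MSC-sEV, with 84 UMIs, 57.1 CPM (45.6 to 70.7), and 125 UMIs, 106 CPM (87.9 to 126). The level was 1.85-fold higher in MSC-sEV (1.39 to 2.47). This difference was smaller when cells with more microglia markers were left out. The 13 microglia markers, all detected in both libraries, made up 0.328% and 0.0612% of Müller glia-like UMIs, and 41 of 112 PBS cells and 16 of 76 MSC-sEV cells had more than 0.1%. Of all Müller glia-like cells, 19 and 15 lay near that line, between 0.05% and 0.2%. In the 71 and 60 cells at or below it, Fgfr1 was at 91.2 CPM (69.6 to 117) and 105 CPM (87.1 to 126), a log2 ratio of 0.21 instead of 0.89. Fgf2 in the same cells stayed apart, at 27.4 CPM (16.2 to 43.2) and 143 CPM (121 to 167), and Edn2 had 1 and 27 UMIs, 1.52 and 24.1 CPM. Depth changed with the limit too. The cells left out had median depths of 11551 UMIs in PBS and 877.5 in MSC-sEV, and the cells kept 6793 and 13565. The parts of microglial RNA and of depth in the Fgfr1 change were not tested.

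In other retinal cells Fgfr1 was rare. Rods had 13 UMIs in 704 PBS cells and 4 in 1067 MSC-sEV cells, 3.86 and 1.14 CPM, a ratio of 0.296 (0.0702 to 0.957), but 8 of the 13 came from cluster 16, and without that cluster 5 and 4 UMIs gave 0.570 (0.113 to 2.65). Cones had 2 and 4 UMIs and bipolar cell-like cells 1 and 0. Endothelial cell-like cells, 21 in PBS and 10 in MSC-sEV, had 5 and 3 UMIs, 28.3 and 24.7 CPM. The level in microglia-like cells was 3.05 and 3.11 CPM and in monocyte or macrophage-like cells of MSC-sEV 8.43 CPM (5.80 to 11.8).

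A second group of Fgfr1-positive cells lay among the leukocytes. Cluster 10, found in MSC-sEV alone and led by Retnlg and Ccr3 with too few markers for a name, had 40 UMIs in 28 of 168 cells, 114 CPM (81.8 to 156), at a median depth of 1344.5 UMIs. That level overlapped the 106 CPM of Müller glia-like cells of the same library. It was 17.2% of all Fgfr1 UMIs there. The cluster had 0 Ednrb UMIs, 7 of Fgf2 and 11 of Edn2. Its Edn2 level, 31.5 CPM (15.7 to 56.3), overlapped the 22.9 CPM of cone-like and 22.8 CPM of Müller glia-like cells of MSC-sEV. Of the other receptors for FGF2, Fgfr2 had 1 and 2 UMIs in Müller glia-like cells.

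Ednrb, the endothelin receptor, was sparse even in Müller glia-like cells, where 44.0% of its UMIs in PBS and 53.5% in MSC-sEV were found. There were 11 UMIs in 5 of 112 PBS cells, 7.48 CPM (3.74 to 13.4), and 23 UMIs in 8 of 76 MSC-sEV cells, 19.4 CPM (12.3 to 29.2). The ratio was 2.60 (1.22 to 5.90). Single cells weighed heavily: 1 MSC-sEV cell of 33413 UMIs held 11 of the 23 UMIs, and without the richest cell of each library the counts were 8 and 12, 5.61 and 10.4 CPM. In the cells at or below 0.1% microglia markers the counts were 2 and 23, 3.04 CPM (0.368 to 10.98) and 20.5 CPM (13.01 to 30.8). After thinning to 1000 UMIs, 0 of 97 and 0 of 56 Müller glia-like cells had an Ednrb UMI, so the share of cells with it cannot be compared at equal depth.

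Ednrb was also counted in cone-like cells, with 10 UMIs in 5 of 75 PBS cells and 5 in 3 of 52 MSC-sEV cells, 6.66 CPM (3.20 to 12.3) and 5.45 CPM (1.77 to 12.7). These overlapped each other and, in PBS, the level of Müller glia-like cells. Bipolar cell-like cells had 0 and 8 UMIs, with 15.3 CPM (6.61 to 30.2) in MSC-sEV. With the 0 set to a floor of 3 counts over the class, the ratio was 2.47, and its exact interval began at 1.58. Rods had 4 and 1 UMIs, 1.19 and 0.285 CPM, the lowest retinal level in MSC-sEV. Microglia-like cells had 0 of 103 and 0 of 353 cells with a UMI, with intervals up to 5.62 and 1.04 CPM. The largest share of Edn2 UMIs was thus in rods and that of Fgfr1 in Müller glia-like cells, in both libraries. For Ednrb the largest share was in Müller glia-like cells in MSC-sEV. In PBS the counts, 11 UMIs in Müller glia-like and 10 in cone-like cells (44% and 40%), were too close to rank the classes. Within the limit on microglia markers, Müller glia-like cells kept 2 Ednrb UMIs in PBS, fewer than the cone-like cells, and 23 in MSC-sEV.

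The other endothelin genes had a different distribution. Edn1, the endothelial endothelin, had 10 UMIs in 6 of 21 endothelial cell-like cells of PBS and 0 in 10 of MSC-sEV, 56.7 CPM (27.2 to 104) and an interval up to 30.4 CPM. In monocyte or macrophage-like cells 59 Edn1 UMIs were counted in 7 of 193 cells, 15.1 CPM (11.5 to 19.4). Edn3 had 7 UMIs in PBS endothelial cell-like cells and 1 in MSC-sEV. Neither was counted in MSC-sEV rods, so Edn2 was the endothelin that rods of both libraries carried. Ednra, the other endothelin receptor, had 1 UMI in Müller glia-like cells of each library. Ece1, which cleaves the endothelin precursors, was at 25.8 and 22.8 CPM in Müller glia-like cells, a ratio of 0.883 (0.518 to 1.48).

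Of the 18 FGF ligands, 2 reached 20 UMIs in rods, Fgf2, which had been chosen for its difference there, and Fgf9. Fgf9, made by retinal neurons, was at 24.9 and 25.4 CPM in rod-like cells, a ratio of 1.02 (0.747 to 1.39), and at 67.3 and 54.1 CPM in Müller glia-like cells, a ratio of 0.803 (0.577 to 1.11). In Müller glia-like cells 3 reached 20 UMIs and 2 were at least 2-fold higher, where 9.69% of all genes were. Apart from Fgf2, the gene past 2-fold was Fgf15, the mouse counterpart of FGF19. It had 0 and 42 UMIs, a ratio of 17.4 with the 0 set to a floor of 3 counts over the class (exact interval from 13.5). However, 41 of the 42 were in 1 cell of 39379 UMIs, which also held the most Fgfr1 UMIs of any Müller glia-like cell, 14.

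No feedback or target gene of FGF that could be read was at least 2-fold higher in rod-like or Müller glia-like cells. Of 17 feedback and target genes of FGF and ERK, 8 could be read in rods. Of these, 0 were at least 2-fold higher and 2 at least 2-fold lower, where 14.6% and 5.21% of all genes were. With 8 genes read, 0 higher is near the share of all genes. Their median log2 ratio was -0.22 against 0.26 for all genes. Egr1, an immediate early transcription factor, was at 112 and 119 CPM, and Spry2, a Sprouty inhibitor, at 79.9 and 82.2 CPM. Dusp6, the ERK phosphatase, was at 21.1 and 4.00 CPM, 5.28-fold lower in MSC-sEV (2.95 to 10.1), but without cluster 16 it was at 3.20 and 4.00 CPM (ratio 1.25, 0.488 to 3.43). Spry3 had 19 and 9 UMIs, 2.20-fold lower (0.947 to 5.51). In Müller glia-like cells, where the Fgfr1 UMIs are, 11 of the 17 could be read. Of these, 0 were past 2-fold in either direction, where 9.69% of all genes were higher and 4.65% lower. Their median was 0.26 against 0.13 for all genes. In these cells Dusp6 was at 58.5 and 41.4 CPM (ratio 0.708, 0.488 to 1.02) and Spry2 at 114 and 125 CPM (1.09, 0.871 to 1.37). Smaller differences with intervals above 1 were seen in Ccnd1 (1.57, 1.27 to 1.94), Egr1 (1.19, 1.03 to 1.39) and Fos, at 493 and 581 CPM (1.18, 1.06 to 1.31).

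In cone-like cells 7 of the 17 could be read. Of these, 2 were at least 2-fold higher and 1 lower, where 11.2% and 2.13% of all genes were. Etv5, an ETS factor induced by FGF, had 4 and 16 UMIs, 6.55-fold higher (2.11 to 26.9), while Spry2 was 2.08-fold lower (1.37 to 3.23), at 68.0 and 32.7 CPM. Of 16 receptors and co-receptors, 6 could be read in rods, with 1 at least 2-fold higher: Frs2, the adaptor that links FGF receptors to ERK, at 8.61 and 28.0 CPM, 3.25-fold (2.13 to 5.10). This 1 of 6 is near the 14.6% of all genes. In Müller glia-like cells 8 could be read and 2 were at least 2-fold higher, where 9.69% of all genes were, the heparan sulfate proteoglycans Sdc3 (2.43-fold, 1.46 to 4.16) and Gpc1 (2.82-fold, 1.34 to 6.36). Sdc4, the most counted, was at 134 and 252 CPM, 1.88-fold (1.56 to 2.26).

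Other survival factors for photoreceptors gave no common direction in rods. Of 14, 4 could be read there, too few to set against the shares of all genes. Of the 4, 0 were at least 2-fold higher and 1 at least 2-fold lower, where 14.6% and 5.21% of all genes were. The lower gene was Ptn (pleiotrophin), at 15.7 and 3.14 CPM. Ptn is far more abundant in Müller glia-like cells, at 695 and 1050 CPM, and the 13 Müller glia markers, all detected, made up 0.202% and 0.0487% of rod-like UMIs. Nxnl1, the gene of rod-derived cone viability factor, was at 447 and 550 CPM in rods, 1.23-fold (1.15 to 1.32). In Müller glia-like cells 8 of 14 could be read and 2 were at least 2-fold higher, where 9.69% of all genes were. These were Igf1, with 4 and 52 UMIs, 16.1-fold (5.94 to 61.5), and Serpinf1, the gene of pigment epithelium-derived factor, 2.55-fold (1.42 to 4.76). The 8 pigment epithelium markers made up 0.00286% and 0.155% of Müller glia-like UMIs, with 4 and 7 of them detected and Rpe65 at 0 in PBS. The 11 monocyte or macrophage markers summed to 175.5 CPM in PBS, with 5 detected, and to 613.5 CPM in MSC-sEV, with 9, Ly6c2 and F13a1 being at 0 in both. Igf1 itself was at 51.8 and 300.3 CPM in microglia-like cells. The part of these cells in the Igf1 and Serpinf1 values was not tested.

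The genes of the glial damage response were higher together with Fgf2 in Müller glia-like cells. All 16 could be read; 11 were at least 2-fold higher and 0 lower, with a median log2 ratio of 1.75, against 9.69% of all genes higher, 4.65% lower and a median of 0.13. The 6 astrocyte markers, all detected, summed to 316 and 611 CPM in the same cells, beside the monocyte or macrophage markers given above, and their part was not tested. Lcn2, a secreted iron-siderophore binding protein, had 22 and 4832 UMIs, 15.0 and 4083 CPM, and the metallothionein Mt1 was at 995 and 3357 CPM. Stat3, the transcription factor downstream of gp130 cytokines, was 3.36-fold higher (2.47 to 4.63). Gfap and Vim, the intermediate filaments of reactive glia, were close to level, Gfap at 153 and 183 CPM (ratio 1.19, 0.985 to 1.44) and Vim at 1553 and 1613 CPM (ratio 1.04, 0.977 to 1.10). In rods 11 of these genes could be read, with 5 at least 2-fold higher, where 14.6% of all genes were, and 0 lower. Bcl3 had 5 and 45 UMIs in rods, 8.65-fold (3.44 to 27.9), and Stat3 was at 27.3 and 84.5 CPM, 3.09-fold (2.44 to 3.95).

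**Figure D4:**
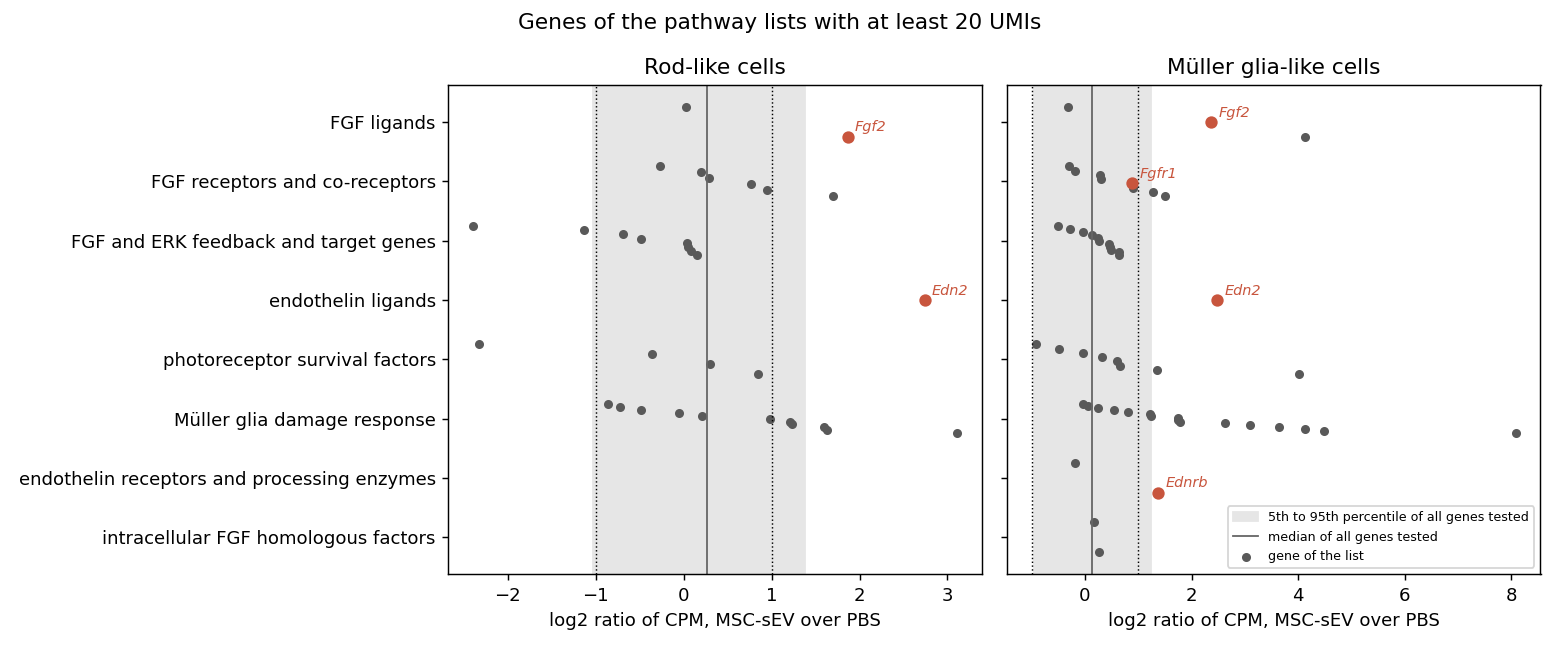
Log2 ratio of CPM, MSC-sEV over PBS (horizontal axis), for each gene with at least 20 UMIs in the lists (rows), in rod-like cells (left) and Müller glia-like cells (right). Red points are the named genes, dotted lines mark 2-fold, the grey band spans the 5th to 95th percentile of all genes tested and the vertical line their median; Fgf15, the point farthest right among FGF ligands, is drawn at its floor of 3 counts. Feedback and target genes lie at or left of the median in rods, while the glial damage genes reach 8.09 in Müller glia-like cells.

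Transcripts on the other strand bear on the Fgf2 count. Nudt6, a protein-coding gene on the minus strand, overlaps Fgf2 over 5199 bases, and the antisense gene Fgf2os over 1395 bases, and whether counting used strand is not given in the sources used here. Nudt6 was level in rods, with 56 and 59 UMIs, 16.6 and 16.8 CPM (ratio 1.01, 0.690 to 1.49). Fgf2os followed Fgf2, with 42 and 161 UMIs in rods, 12.5 and 45.9 CPM, 3.68-fold (2.61 to 5.31), and 13 and 23 UMIs in Müller glia-like cells. If counting ignored strand, reads of Fgf2 and Fgf2os could not be told apart where they overlap. The antisense gene over Fgfr1, Gm16159, had 0 UMIs in both libraries.

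Over 17 sums of a class in a library with at least 40 cells, the genes whose log2(CPM + 10) was most like that of Fgf2 were Lrrc2 (Pearson r 0.96), Lrrc8b (0.93), Shisa2 (0.92), Adcy1 (0.91) and Impg2 (0.90). For Edn2 they were Hipk3 (0.93), Dlg1 (0.90), Tnpo1 (0.88), Gm45902 (0.88) and Tldc1 (0.87). Ednrb was most like Tshz3 (0.88), Triqk (0.86), Cited1 (0.86), Kctd1 (0.85) and Dtna (0.83). Fgfr1 was most like Cyp26a1 (0.96), Id1 (0.94), Rhou (0.92), Rcn1 (0.90) and Lypd6 (0.90). Between the 4 genes the ligands were alike at 0.71, and Edn2 was unlike its receptor at -0.14, as was Fgf2 to Fgfr1 at 0.058. These sums share 2 libraries and the free RNA of each, so the values only describe the pattern.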

How the data were processed

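Single-cell RNA was measured in 2 mouse retina libraries. Per the labels' protocols, the deposited files are UMI counts per gene and barcode, made by the authors with Cell Ranger 3.0.2 (also in the submitters' processing notes) against mm10; the annotation release and the use of strand are not given in the sources used here. The 4 genes, the gene lists and the markers were chosen with earlier results of these data known.

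Barcodes needed 500 UMIs, 300 genes and no more than 15% mitochondrial counts. Scrublet (expected rate 2%, run on each library) marked 3 and 4 doublets, so few that doublets cannot be taken as removed. Both libraries were clustered together (scanpy 1.11.5, leidenalg 0.10.2; 2000 variable genes, 30 principal components, 20 neighbours, resolution 1), without mitochondrial, ribosomal and sex-linked genes and without the 4 genes. A cluster took a class name with "-like" if 3 or more of the class markers were detected in 20% of the cluster and exceeded the other cells 2-fold; a cluster whose top 10 genes favoured another class, or a shallow one with no such marker there, was left unnamed. Summed UMIs gave CPM with exact Poisson intervals, shares exact Clopper-Pearson intervals, and ratios exact conditional binomial intervals, all 95% and for counting error only. A ratio against 0 counts uses a floor of 3. No p-values were computed, because each group is 1 library. Ratios were tested on simulated counts. Positions are from GENCODE for GRCm38 and promoter windows from RefSeq. Of each list, the 4 genes with the most UMIs in the class and the 2 with the largest ratio among those with at least 20 UMIs could be named; likeness used genes with at least 100 UMIs. Alternatives changed the cell filter, doublets, resolution, naming, scaling, weighting, depth, background and minimum of UMIs.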

Additional observations from a re-analysis of the deposited data

Results flagged for a closer look

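Fgf2, Edn2 and Fgfr1 were also counted in the barcodes that failed the cell filter, which no comparison above used. In the 270 such barcodes of MSC-sEV they were at 47.4, 21.3 and 9.48 CPM (20, 9 and 4 UMIs), and in the 329 of PBS at 29.8, 12.4 and 7.45 CPM (12, 5 and 3 UMIs).

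Fgfr1 was higher in MSC-sEV in Müller glia-like cells and lower in rod-like cells, where its log2 ratio was -1.76. The difference between the classes was not tested, as each group has 1 library, and 8 of the 13 PBS rod UMIs came from the cluster of 47 cells found in that library alone.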

How the results depend on the processing

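The log2 ratios of Fgf2 and Edn2 in rod-like cells and of Fgf2, Ednrb and Fgfr1 in Müller glia-like cells stayed above 0 in each alternative that gave a ratio, as did those of both ligands in cone-like cells and Edn2 in Müller glia-like cells. No ratio is given with 3 or fewer UMIs in both libraries: after thinning for Fgf2 (3 and 3) and Edn2 (1 and 0) in cone-like and Edn2 (0 and 3) and Ednrb (0 and 0) in Müller glia-like cells, and at resolution 2 for Edn2 in Müller glia-like cells (1 and 0), so that in these counts MSC-sEV was not always higher. Edn2 in rods ranged from 2.28 to 3.07 over 14 alternatives. Fgf2 in Müller glia-like cells (2.37) ranged from 1.52 at resolution 2 to 3.39 with the microglia-like level subtracted, and Edn2 there (2.48) reached 4.48 with the mean of each cell's CPM. Fgf2 in cone-like cells (1.21) went down to 0.76 with the stricter cell filter. Fgf2 in rods (1.86) moved to 1.28 with the mean of each cell's CPM, 2.34 with the microglia-like level subtracted and 1.30 with shared clusters weighted equally. Ednrb in Müller glia-like cells (1.38) moved to 2.75 without cells above 0.1% microglia markers. Fgfr1 there (0.89) moved to 0.21 without those cells, 0.42 with a marker score per cell and 1.31 after thinning to 1000 UMIs (7 and 10 UMIs). Genes at least 2-fold apart in rods (2039) numbered 1245 with the marker score, 1288 after thinning and 5115 with no minimum of UMIs. In Müller glia-like cells (1453) they numbered 691 at resolution 2, 934 with the marker score, 3162 with the mean of each cell's CPM, 196 after thinning, 736 with at least 50 UMIs and 4370 with no minimum. Fewer UMIs or another minimum change which genes can be read; otherwise the cause was not tested. Leaving out the rod cluster of 1 library, equal weights and the microglia limit were chosen after seeing the data. No paired analysis was possible because each group has 1 library, and for the same reason none could be left out. Few UMIs limit Ednrb (11 and 23) and Edn2 (6 and 27) in Müller glia-like cells and Edn2 in cone-like cells (9 and 21).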
